A study of Mus musculus with 16 samples.

Results

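The SLAM family is a set of surface receptors of lymphocytes that, with their intracellular adaptors, was followed here in mouse CD8 T cells at rest and after stimulation. Members were all non-control probes whose gene name on the array was Slamf1, Slamf6, Slamf7, Cd48, Cd244 (now Cd244a), Ly9, Cd84, Sh2d1a or Sh2d2a. This gave 16 probes of 41174, and 14 of them passed a filter on dim probes, as did 27349 probes of the whole array. All 9 genes had at least 1 probe that passed, among 18403 genes tested. Cells positive for CD8 and Thy1.2 from female C57BL/6N mice aged 7 weeks were sorted on CD44, a surface glycoprotein of antigen-experienced T cells, into CD44-low naive cells and CD44-high memory phenotype cells. Culture lasted 4 h, with no addition in the resting groups and with 10 ng/mL PMA plus 500 ng/mL ionomycin in the stimulated groups. PMA turns on protein kinase C and ionomycin lets calcium into the cell, so no receptor ligand is needed. The 4 groups held 4 arrays each, from 4 independent rounds of sorting and culture. No group carried a genetic change, memory phenotype was defined by CD44 alone, and the labels say neither whether cells of several mice were pooled nor whether same-numbered replicates of different groups came from 1 round.

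SLAM receptors have immunoglobulin-like domains outside the cell, and most of them bind the same receptor on a neighbouring cell. Cd48 is anchored in the membrane by a lipid and serves as the ligand of Cd244. The tails of Slamf1, Slamf6, Ly9, Cd84 and Cd244 carry switch motifs, short tyrosine-based stretches that dock the small adaptor SAP, the product of Sh2d1a. SAP brings in the kinase Fyn, and where SAP is missing the same motifs recruit inhibitory phosphatases. Inherited loss of SAP causes X-linked lymphoproliferative disease in humans, in which CD8 T cells respond poorly to infected B cells. Sh2d2a encodes TSAd, a T cell adaptor with a related SH2 domain that binds Lck and is not known as a docking partner of the switch motifs.

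Each value on the array is the signal of a probe of 60 bases, and 6 of the 9 genes had more than 1. The following 6 probes are shown because their sequence lets a reader see which stretch of the transcript each measured. Every one has at least 1 reading frame without a stop codon. Positions are those in the files, on mouse build mm7, and exon and intron annotation of that build was not used here. The Slamf1, Slamf6, Cd244 and Sh2d2a probes cover 4319, 1329, 527 and 251 bases of genome, more than their own length, so each joins separate stretches of its gene. Capitals in the Cd244 probe mark the 18 bases that a script found to encode a switch motif, read as threonine, any residue, tyrosine, any pair of residues, then valine or isoleucine.
Slamf1, plus strand, chr1:171758095-171762413: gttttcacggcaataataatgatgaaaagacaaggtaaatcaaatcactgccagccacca
Slamf6, plus strand, chr1:171906779-171908107: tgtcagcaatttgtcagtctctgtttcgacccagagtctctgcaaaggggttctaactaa
Slamf7, minus strand, chr1:171609261-171609320: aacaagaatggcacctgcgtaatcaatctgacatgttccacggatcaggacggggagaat
Cd48, plus strand, chr1:171665895-171665954: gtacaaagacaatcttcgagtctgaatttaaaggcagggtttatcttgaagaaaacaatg
Cd244, plus strand, chr1:171547436-171547962: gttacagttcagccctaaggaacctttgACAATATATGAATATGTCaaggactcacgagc
Sh2d2a, plus strand, chr3:87965635-87965885: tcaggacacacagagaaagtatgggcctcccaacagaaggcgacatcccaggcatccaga

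The 6 receptor genes found in RefSeq's promoter table (build GRCm38.p6) were Slamf1, Slamf6, Slamf7, Cd48, Cd244a and Cd84. The 250 bases before each start were searched on both strands for TGANTCA, the letters of an AP-1 site, and GGAAAA, the core letters of an NFAT site. PMA and ionomycin are known to act on these factors. TGANTCA was found once each in Slamf7, Cd84 and Cd244a and not in the other 3, against 6.75% of all 32851 promoters. GGAAAA was in none of the 6 windows and in 20.4% of all promoters, and no matches overlapped. The windows of Slamf1 and Slamf7, both of which rose in naive and memory cells, are shown with the AP-1 letters in capitals. The match in Slamf7 begins 42 bases before the start, and the Slamf1 window holds none.
Slamf1, plus strand, chr1:171766882-171767131: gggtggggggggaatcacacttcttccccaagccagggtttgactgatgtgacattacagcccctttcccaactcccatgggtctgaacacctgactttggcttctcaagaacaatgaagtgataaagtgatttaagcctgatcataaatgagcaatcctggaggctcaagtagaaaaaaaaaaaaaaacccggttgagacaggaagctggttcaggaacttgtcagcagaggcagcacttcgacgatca
Slamf7, minus strand, chr1:171649000-171649249: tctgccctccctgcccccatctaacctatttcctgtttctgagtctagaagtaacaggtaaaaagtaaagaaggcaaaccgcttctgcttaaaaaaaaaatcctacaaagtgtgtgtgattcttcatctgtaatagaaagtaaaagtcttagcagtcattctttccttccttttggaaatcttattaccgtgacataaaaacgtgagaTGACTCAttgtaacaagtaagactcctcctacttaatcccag

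Levels are log2 signals minus the 75th percentile of the same array, which lay between 485 and 670 intensity units, so 1 unit is a doubling. Between 59.3% and 66.5% of spots were well above background. Replicates of a group correlated across genes with Pearson's r of 0.978 to 0.995, and genes are not independent replicates. All 8 T cell markers examined, among them Cd3e, Cd8a and Thy1, were well above background on every array, while Foxp3, a marker of regulatory CD4 T cells, and Pax5, a marker of B cells, were so on none. Each group was hybridised on a slide and in a scan of its own, so a group and its slide cannot be told apart, and this holds for every difference below. Levels are those of sorted populations, in which fewer cells with a transcript and less of it per cell cannot be told apart.

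Stimulation raised Slamf1 34.0-fold and Slamf7 57.2-fold in naive cells, and 45.4-fold and 27.0-fold in memory cells, while Sh2d1a fell 8.06-fold and 8.67-fold. Cd84 and Sh2d2a rose by 2.10-fold to 5.54-fold. In all, 5 of the 9 genes rose in naive cells (also Ly9) and 6 in memory cells (also Slamf6 and Cd244), and Sh2d1a was the 1 that fell in both, by limma with Benjamini-Hochberg adjustment at an adjusted p of 0.05. Over the whole array 38.3% of genes rose and 31% fell in naive cells (69.2% in either direction), and 31.4% rose and 39.1% fell in memory cells (70.5%). The number of members called in either direction is thus near the background. The members' median log2 change was 0.37 in naive and 0.55 in memory cells, beside 0.15 and -0.16 over all genes. Resting and stimulated arrays did not overlap for 6 of 9 genes in naive cells (60.6% of all genes) and for 6 in memory cells (64.7%). The members' log2 changes ran from -3.01 to 5.84 in naive cells and from -3.12 to 5.50 in memory cells. The comparisons share arrays, since each group enters 2 of them and all groups enter the interaction. The median of all genes moved with the scaling. It was 0.01 in naive cells under quantile scaling, and 0.03 in memory cells under a repaired normexp background correction, so the sign of small changes rests on the scaling.

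**Figure D1:**
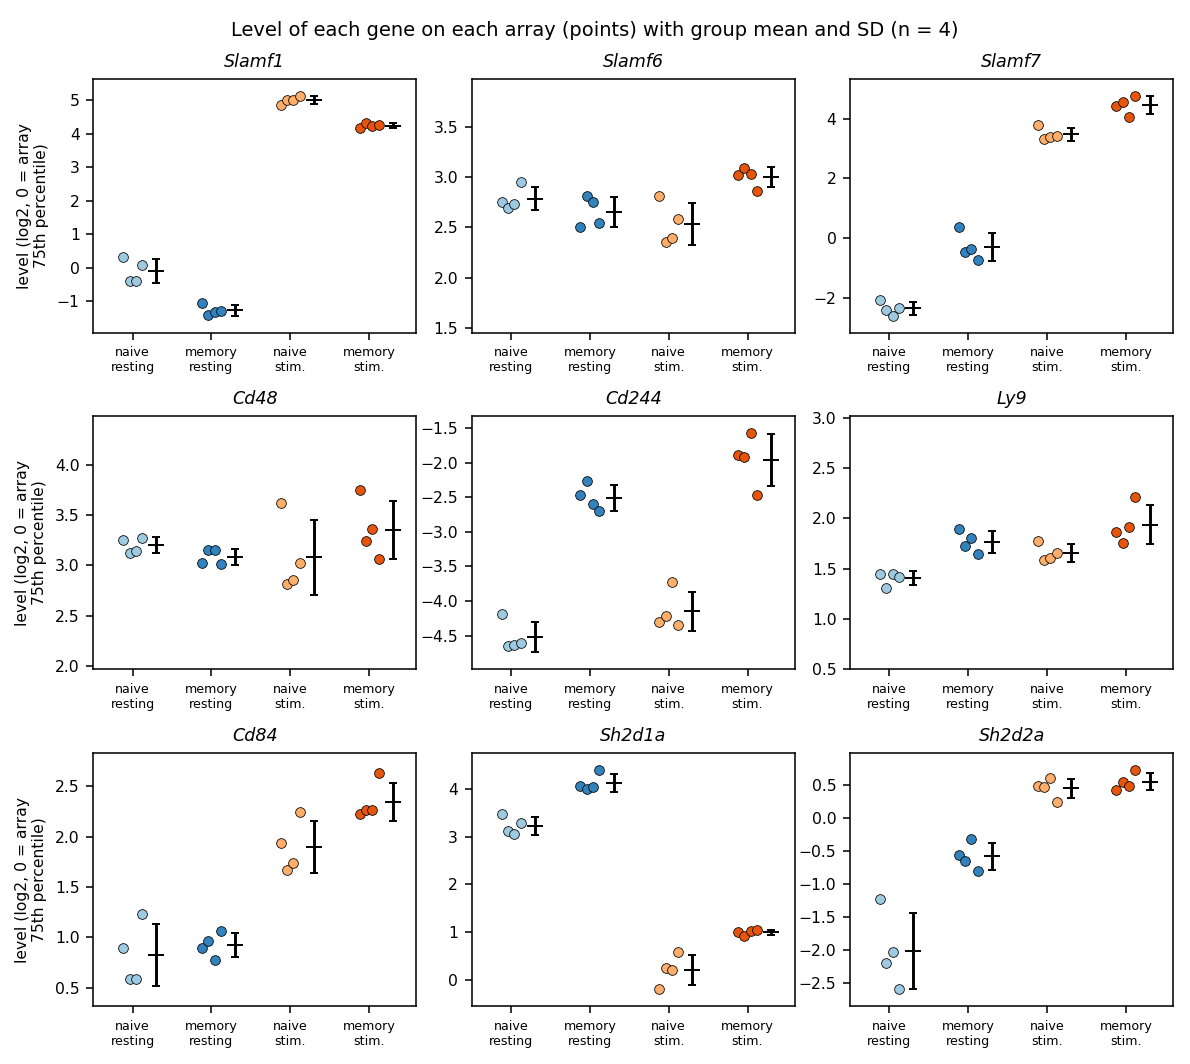
Level of each of the 9 genes on each array (log2 signal, 0 being the array's 75th percentile), with the mean and SD of the 4 arrays of a group beside the points; each panel has its own vertical range. Slamf1 and Slamf7 lie 4.75 to 5.84 log2 units higher after stimulation and Sh2d1a 3.01 to 3.12 lower, while Cd244 separates memory from naive arrays at rest and after stimulation.

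Slamf1 encodes the founding receptor of the family, a self-ligand that in humans also serves measles virus as an entry receptor. In naive cells its level was 0.34, -0.38, -0.39 and 0.08 at rest and 4.85, 5.01, 5.0 and 5.12 after stimulation. Memory cells held -1.04, -1.41, -1.33 and -1.28 at rest and 4.16, 4.33, 4.22 and 4.25 after stimulation. All stimulated arrays lay above all resting arrays, and the order of the groups from low to high was memory resting, naive resting, memory stimulated, naive stimulated, with no overlap between neighbours. The rise was 5.09 ± 0.15 (SE of the fit, n = 4 per group) in naive cells, or 34.0-fold, with an adjusted p of 5.5e-13 in limma. It was 5.50 ± 0.15 in memory cells, or 45.4-fold, with an adjusted p of 2.9e-13 in limma.

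Slamf7, which activates NK cells through an adaptor other than SAP, showed rises of like size. Naive arrays read -2.08, -2.40, -2.60 and -2.34 at rest and 3.80, 3.32, 3.38 and 3.43 after stimulation. The memory arrays read 0.38, -0.47, -0.37 and -0.75 at rest and 4.41, 4.57, 4.06 and 4.76 after stimulation. Here the memory groups stood above the naive groups in both states, without overlap. The change was 5.84 ± 0.22 in naive cells (57.2-fold, limma adjusted p = 5.8e-12) and 4.75 ± 0.22 in memory cells (27.0-fold, limma adjusted p = 4.3e-11).

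Cd84, a self-binding receptor found on many leukocytes, rose less. Its level was 0.90, 0.59, 0.59 and 1.24 on naive resting arrays and 1.94, 1.67, 1.74 and 2.24 on naive stimulated arrays. On memory arrays it was 0.89, 0.96, 0.78 and 1.06 at rest and 2.22, 2.27, 2.27 and 2.63 after stimulation. The stimulated arrays lay above the resting ones in both cell types, whereas the 2 cell types overlapped at rest and after stimulation. The rise was 1.07 ± 0.16 in naive cells (2.10-fold, limma adjusted p = 3.0e-05) and 1.42 ± 0.16 in memory cells (2.68-fold, limma adjusted p = 1.4e-06).

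The remaining receptors moved by less than a doubling on their representative probes. Ly9, a self-ligand abundant on T and B cells, lay between 1.31 and 1.45 on naive resting, 1.58 and 1.78 on naive stimulated, 1.64 and 1.89 on memory resting, and 1.76 and 2.21 on memory stimulated arrays. Its naive rise of 0.25 ± 0.11 had a limma adjusted p of 0.0495. That call was lost in 19 of 25 alternatives, 13 of them with 1 array left out, among these naive stimulated replicate 1 (limma adjusted p = 0.118) and naive resting replicate 2 (0.123). Its memory change was 0.17 ± 0.11 (limma adjusted p = 0.165), with the sign turned under quantile scaling (-0.08) and in the authors' table (-0.13).

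Cd48, the ligand of Cd244, was between 2.82 and 3.75 on every array, and the 4 groups overlapped. Its changes were -0.12 ± 0.17 in naive cells (limma adjusted p = 0.549) and 0.27 ± 0.17 in memory cells (limma adjusted p = 0.172). The naive value passed the threshold as a fall under quantile scaling (-0.44) and in the authors' table (-0.64), and the memory value turned sign there (-0.19 and -0.18). With the mean of its 2 probes the memory value was 0.44 (limma adjusted p = 0.0494).

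Cd244 gave a low signal on its representative probe, though it was well above background on all 16 arrays. Its naive level was -4.19, -4.65, -4.64 and -4.61 at rest and -4.30, -4.22, -3.73 and -4.35 after stimulation. In memory cells the values were -2.47, -2.27, -2.60 and -2.70 at rest and -1.88, -1.91, -1.57 and -2.47 after stimulation. All memory arrays were above all naive arrays, and within each cell type the resting and stimulated arrays overlapped. The memory rise of 0.55 ± 0.19 passed the test (limma adjusted p = 0.0172) and did not without memory stimulated replicate 3 (limma adjusted p = 0.0635). The naive change of 0.37 ± 0.19 did not pass (limma adjusted p = 0.0949), although it did without naive resting replicate 1 (0.0410).

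Slamf6, a self-binding receptor of T, B and NK cells, depended on the probe. Its brighter probe, the one printed above, read 2.75, 2.69, 2.73 and 2.95 on naive resting, 2.81, 2.36, 2.39 and 2.58 on naive stimulated, 2.50, 2.81, 2.75 and 2.55 on memory resting, and 3.02, 3.09, 3.03 and 2.86 on memory stimulated arrays. The naive change was -0.25 ± 0.12 (limma adjusted p = 0.0779) and reached the threshold as a fall under quantile scaling (-0.51), under the repaired normexp correction (-0.36), in the authors' table (-0.59) and without naive stimulated replicate 1 (-0.34). The memory rise of 0.35 ± 0.12 (limma adjusted p = 0.0170) turned sign under quantile scaling (-0.05) and in the authors' table (-0.02), and was lost without memory resting replicate 1 (limma adjusted p = 0.0532). With the mean of both tested probes the naive change was 0.47 and the memory change 0.98. The RNA was amplified from an oligo-dT primer, which favours sequence near the 3' end. The part of this step in the difference between the 2 Slamf6 probes was not tested. A second Slamf6 probe, placed nearer the 3' end of this plus-strand gene (chr1:171913582-171913641), read 0.98, 0.10, 0.21 and 0.42 on naive resting and 2.07, 1.44, 1.48 and 1.43 on naive stimulated arrays. Memory arrays read 0.66, 0.58, 0.70 and 0.18 at rest and 2.20, 2.19, 2.22 and 1.96 after stimulation. With this probe the resting and stimulated arrays did not overlap in either cell type. It rose by 1.18 ± 0.19 in naive and 1.61 ± 0.19 in memory cells, and kept that direction and call under quantile scaling, the repaired normexp correction and in the authors' table (1.08 to 1.18 and 1.37 to 1.61).

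The adaptors went in opposite directions. Sh2d1a, the gene of SAP on chromosome X, measured 3.46, 3.12, 3.04 and 3.29 in naive resting cells and -0.19, 0.26, 0.20 and 0.59 in naive stimulated cells. Memory cells measured 4.06, 3.99, 4.04 and 4.39 at rest and 1.0, 0.93, 1.03 and 1.04 after stimulation. The groups were ordered naive stimulated, memory stimulated, naive resting, memory resting, and no neighbours overlapped. The fall was -3.01 ± 0.15 in naive cells (8.06-fold, limma adjusted p = 1.2e-10) and -3.12 ± 0.15 in memory cells (8.67-fold, limma adjusted p = 8.2e-11).

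Sh2d2a, the gene of TSAd on chromosome 3, read -1.24, -2.20, -2.03 and -2.60 in naive resting cells and 0.48, 0.47, 0.60 and 0.25 in naive stimulated cells. Memory resting arrays read -0.56, -0.65, -0.32 and -0.81, and memory stimulated arrays 0.43, 0.55, 0.49 and 0.73. Resting naive cells were lowest, resting memory cells intermediate, and the 2 stimulated groups overlapped at the top. The rise was 2.47 ± 0.22 in naive cells (5.54-fold, limma adjusted p = 6.4e-08) and 1.13 ± 0.22 in memory cells (2.20-fold, limma adjusted p = 0.00024).

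**Figure D2:**
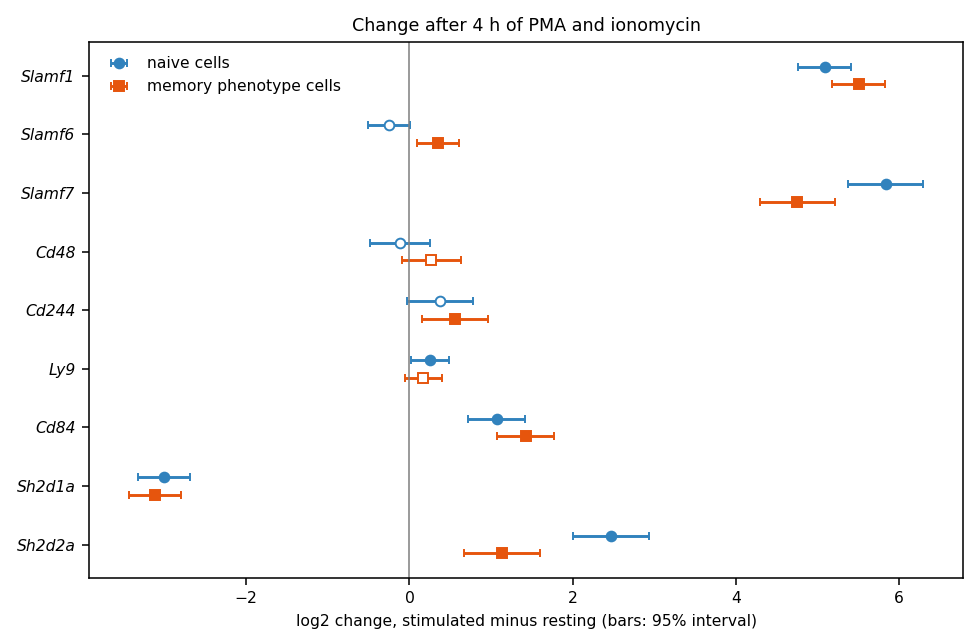
Log2 change after stimulation for each gene in naive (circles) and memory phenotype cells (squares), with 95% intervals from the fit; filled symbols passed an adjusted p of 0.05. The rises of Slamf1 and Slamf7 (4.75 to 5.84) and the fall of Sh2d1a stand far from 0. The filled memory value of Slamf6 turned sign under quantile scaling (-0.05) and in the authors' table (-0.02), and the filled naive value of Ly9 was lost in 19 of 25 alternatives.

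Memory and naive cells were next compared at rest, which asks how the populations differed before stimulation. Slamf7, Cd244, Sh2d2a, Sh2d1a and Ly9 were higher in memory cells and Slamf1 was lower. These 5 higher and 1 lower genes of 9 stand beside 13.9% higher and 7.66% lower of all genes (21.5% in either direction). The arrays did not overlap for 6 of the 9, beside 22.6% of all genes. The median difference was 0.36 over the members and -0.01 over all genes. Slamf7 differed by 2.05 ± 0.22 (4.15-fold, limma adjusted p = 6.3e-06) and Cd244 by 2.01 ± 0.19 (4.04-fold, limma adjusted p = 2.1e-06). The Cd244 value was 0.91 under the repaired normexp correction and 1.22 in the authors' table, with the call kept. Sh2d2a differed by 1.44 ± 0.22 (limma adjusted p = 0.00021), Sh2d1a by 0.89 ± 0.15 (0.00058) and Ly9 by 0.36 ± 0.11 (0.0258). Slamf1 was 1.18 ± 0.15 log2 units lower in memory cells, or 2.26-fold (limma adjusted p = 4.4e-05). For Cd48 (95% interval -0.48 to 0.25), Slamf6 (-0.39 to 0.12) and Cd84 (-0.25 to 0.45) no difference was called. Ly9 was not called without naive resting replicate 2 (limma adjusted p = 0.0809) or without memory resting replicate 1 (0.0788) or 3 (0.0617). Over all genes, 64.5% of the resting calls were higher in memory cells, against 56.3% under quantile scaling, 48.0% under the repaired normexp correction and 50.2% in the authors' table. The number of genes lower in memory cells, 1409, was 902 without naive resting replicate 2, 924 without replicate 3 and 871 without memory resting replicate 1.

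After stimulation 4 genes were higher in memory cells (Cd244, Slamf7, Sh2d1a and Slamf6) and Slamf1 was lower, beside 10.1% and 14.1% of all genes (24.2% in either direction). The arrays did not overlap for 5 of 9 genes, beside 27.7% of all genes, and the median difference was 0.45 against -0.05 over all genes. Cd244 differed by 2.20 ± 0.19 (4.58-fold, limma adjusted p = 1.2e-06), Slamf7 by 0.97 ± 0.22 (0.0044), Sh2d1a by 0.79 ± 0.15 (0.0016) and Slamf6 by 0.47 ± 0.12 (0.0108). Cd244 gave 1.11 under the repaired normexp correction, and the Sh2d1a call was lost with the mean of its probes (0.50, limma adjusted p = 0.101). Slamf1 was 0.76 ± 0.15 log2 units lower in memory cells, or 1.69-fold (limma adjusted p = 0.0020). Cd84 (0.45 ± 0.16, limma adjusted p = 0.0582) and Ly9 (0.28 ± 0.11, 0.0687) did not pass. Cd84 passed without naive resting replicate 4 (limma adjusted p = 0.0328) or naive stimulated replicate 4 (0.0271). The Sh2d2a difference was 0.10 ± 0.22, with a 95% interval of -0.36 to 0.56. Without naive stimulated replicate 1, Cd48 (0.45, limma adjusted p = 0.0260) and Ly9 (0.32, 0.0493) also passed.

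**Figure D3:**
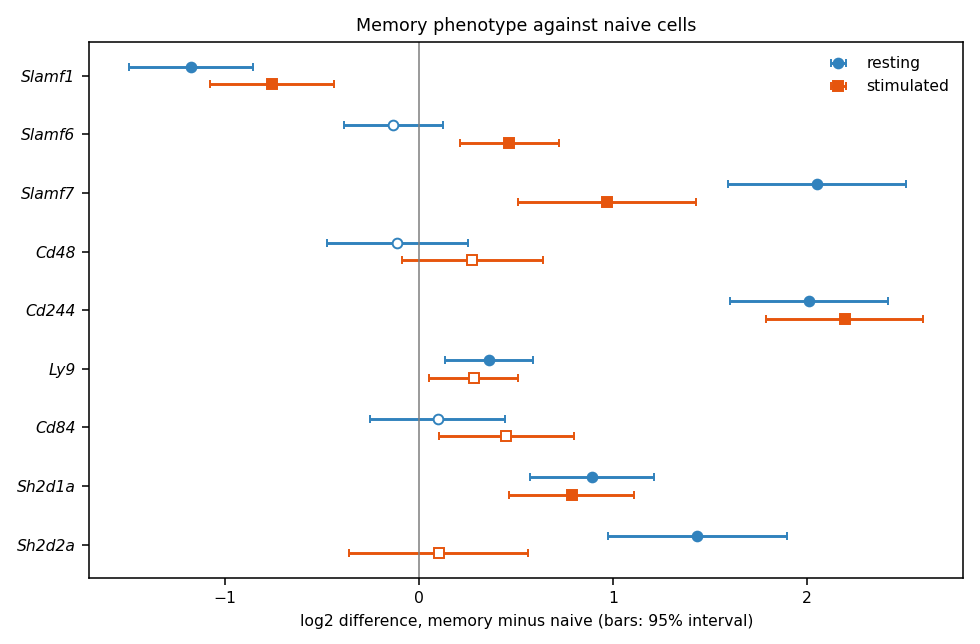
Log2 difference between memory phenotype and naive cells for each gene at rest (circles) and after stimulation (squares), with 95% intervals from the fit; filled symbols passed an adjusted p of 0.05. Cd244 lies near 2 in both states, Slamf1 is the only gene with filled symbols below 0, and Sh2d2a moves from 1.44 at rest to 0.10 after stimulation.

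NK cell markers were higher in memory than in naive cells, as were Cd244 and Slamf7, both of which NK cells also express. With stimulation, 0 of the 6 markers rose and 3 fell in naive cells, and 0 rose and 5 fell in memory cells. Of 6 NK cell markers, 5 were higher in memory cells at rest and all 6 after stimulation. Their summed level, as a multiple of the 75th percentile signal, was 0.781 to 0.894 in naive resting, 2.13 to 2.88 in memory resting, 0.304 to 0.360 in naive stimulated and 0.566 to 1.08 in memory stimulated cells, while the 8 T cell markers summed to 270 to 478. Ncr1, the NK receptor that defines that lineage, was well above background on none of the 8 naive arrays, 1 memory resting and 3 memory stimulated arrays. In contrast, Klrb1c, Tyrobp and Fcer1g were so on all 4 arrays of each group. Fcgr3 was so on 4 naive resting and 0 naive stimulated arrays, and Klrb1b on 1 and 0. Of 5 dendritic cell markers tested, 3 were higher in memory cells at rest (list sum 1.24 to 8.05 naive, 4.42 to 8.74 memory) and 0 after stimulation (4.29 to 9.54 and 4.51 to 6.78), with Cd74 lower. Of 8 markers of monocytes, macrophages and neutrophils, 3 were higher at rest (8.07 to 13.7 naive, 13.3 to 21.5 memory) and 1 after stimulation (1.70 to 3.28 and 2.92 to 4.73). Of 5 B cell markers tested, 1 was higher at rest (1.65 to 2.24 naive, 1.36 to 1.63 memory) and 1 lower after stimulation (0.242 to 0.425 and 0.202 to 0.279). Of 2 CD4 T cell markers tested, Zbtb7b was higher in memory cells at rest (3.44 ± 0.25) and after stimulation (1.48 ± 0.25). It was well above background on only 1 naive resting and 0 naive stimulated arrays, so these sizes are not settled. Over the 4 scalings its lowest values were 1.30 at rest and 0.22 after stimulation, the latter difference being called in 3 of them. The CD4 T cell list summed to at most 0.311 on any array. The part of such cells in the differences of Cd244, Slamf7 and the other members was not tested.

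Whether the response itself differed between the cell types was tested by an interaction, the memory response minus the naive response. It passed for 3 of 9 genes, 1 higher and 2 lower, beside 5.9% higher and 14.1% lower of all genes (20% in either direction), so the count is again close to the background. Sh2d2a rose by 1.34 ± 0.31 log2 units less in memory than in naive cells (limma adjusted p = 0.0063), and this call held in all 24 alternatives other than the unrepaired normexp correction. Slamf7 rose by 1.08 ± 0.31 units less in memory cells (limma adjusted p = 0.0207), but its other probe gave -0.44 ± 0.30 (limma adjusted p = 0.364) and the repaired normexp correction -0.62 (0.136). Slamf6 had an interaction of 0.60 ± 0.17 (limma adjusted p = 0.0217), which was not called under quantile scaling (0.45, limma adjusted p = 0.0793) or without naive stimulated replicate 2 (0.0512). Its other probe gave 0.43 ± 0.27 (limma adjusted p = 0.326). For Slamf1 the interaction was 0.42 ± 0.21 (limma adjusted p = 0.189), with a 95% interval of -0.04 to 0.87. Its other probe, at background on memory resting arrays, gave 0.14 ± 0.25 (limma adjusted p = 0.772), but was called on the lower side under the repaired normexp correction (-0.66, limma adjusted p = 0.0106) and in the authors' table (-0.56, 0.0205). Sh2d1a gave -0.10 ± 0.21, with an interval of -0.56 to 0.35. Cd48 passed without naive stimulated replicate 1 (0.57, limma adjusted p = 0.0472). Over all genes, 29.5% of interaction calls were on the higher side, against 40.7% under quantile scaling, 45.1% under the repaired normexp correction and 46.0% in the authors' table.

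Of the members, 5 had 2 tested probes, which share a gene and are not replicates of each other. When every probe was fitted, 69.2% of all probes were called in the naive response, 70.6% in the memory response, 18.4% in the resting difference, 20.9% in the stimulated difference and 15.9% in the interaction. The second Slamf1 probe, the one printed above, rose by 5.40 ± 0.18 in naive cells. It was well above background on 0 of 4 memory resting arrays, so its memory rise was at least 33.4-fold (limma adjusted p = 1.6e-12) and its resting level at least 1.81-fold lower in memory than in naive cells (7.7e-05). These sizes depended on the scaling. Under the repaired normexp correction the naive rise was 3.32, the memory rise 2.66 and the resting difference -0.41, and in the authors' table they were 4.14, 3.58 and -0.55, all with the call kept and the last 2 of each below the stated bounds. The second Slamf7 probe rose by 5.89 ± 0.21 and 5.45 ± 0.21. The second Sh2d1a probe was well above background on 0 of 4 naive stimulated arrays, and fell at least 8.12-fold there (limma adjusted p = 2.3e-07). It was -0.91 and -1.78 on the log2 scale under the repaired normexp correction and in the authors' table, less than that bound. In memory cells 1 of 4 stimulated arrays was well above background, and the call as a fall was made under percentile scaling (limma adjusted p = 6.4e-08), the repaired normexp correction (-1.37) and in the authors' table (-2.18), so its size is not settled. At rest, where all 8 arrays measured it, the memory against naive difference was 0.65 ± 0.37 (limma adjusted p = 0.248), and it passed under the repaired normexp correction (0.44, 0.0055) and in the authors' table (0.51, 0.0149). After stimulation the probe was too dim to compare memory with naive cells. The second Cd48 probe, printed above, was higher in stimulated memory cells than in resting memory cells (0.62 ± 0.22, limma adjusted p = 0.0187) and than in stimulated naive cells (0.69 ± 0.22, 0.0352), neither of which the brighter probe showed. In the authors' table the first of these was 0.42 (limma adjusted p = 0.0791).

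**Figure D4:**
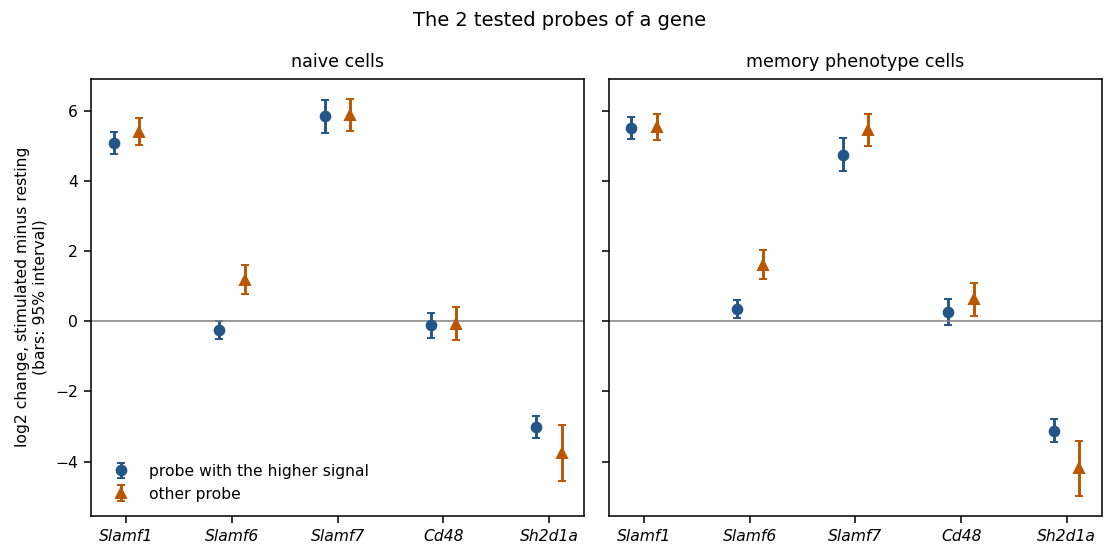
Log2 change after stimulation given by each of the 2 tested probes of 5 genes, in naive (left) and memory phenotype cells (right), with 95% intervals; circles are the probe with the higher signal, triangles the other. The probes of Slamf1, Slamf7 and Sh2d1a lie on the same side of 0, while those of Slamf6 differ (-0.25 and 1.18 in naive cells); the lower Slamf6 circle at 0.35 in memory cells turned sign under quantile scaling (-0.05).

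Of the 3 Cd244 probes only 1 was tested. The probe with the switch motif was well above background on 2 memory resting and 2 memory stimulated arrays and on none of the 8 naive arrays. Its level was -4.92, -5.21, -5.57 and -6.66 in memory resting and -5.17, -5.32, -5.58 and -6.31 in memory stimulated cells, against -7.78 to -6.89 on naive arrays. The third Cd244 probe was well above background on no array. The probe with the switch motif was thus detected on 4 of 8 memory arrays. It was too dim to be tested, so no difference between the cell types is drawn from it.

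The 7 receptor genes (Cd48 counted with them) lie on chromosome 1, with representative probes from -217.1 kb to 137.1 kb relative to that of Slamf1 on build mm7. Other tested genes between the outermost of the members' probes on that chromosome, dimmer probes included, or up to 300 kb outside them numbered 22. After stimulation 4 of these rose and 10 fell in naive cells (median -0.33) and as many did in memory cells (median -0.43). The 7 members on chromosome 1 had 4 rises and no fall in naive cells and 5 rises and no fall in memory cells, beside 38.3% and 31.4% of all genes that rose and 31% and 39.1% that fell. Vangl2, a planar cell polarity gene with its probe 202.6 kb after that of Slamf1, changed by -2.93 ± 0.28 and -2.57 ± 0.28 (limma adjusted p = 1.9e-07 and 8.1e-07). Further from Slamf1, Pea15a changed by -2.72 and -2.98, Usf1 by -2.26 and -1.85, and Pfdn2 rose by 1.82 and 2.38. At rest, 1 neighbour was higher in memory cells and 1, Vangl2 (-2.41 ± 0.28), lower, with 20 not past the threshold. After stimulation 1 was higher and 2 lower, Vangl2 (-2.06 ± 0.28) and Nectin4 (-1.39 ± 0.26).

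**Figure D5:**
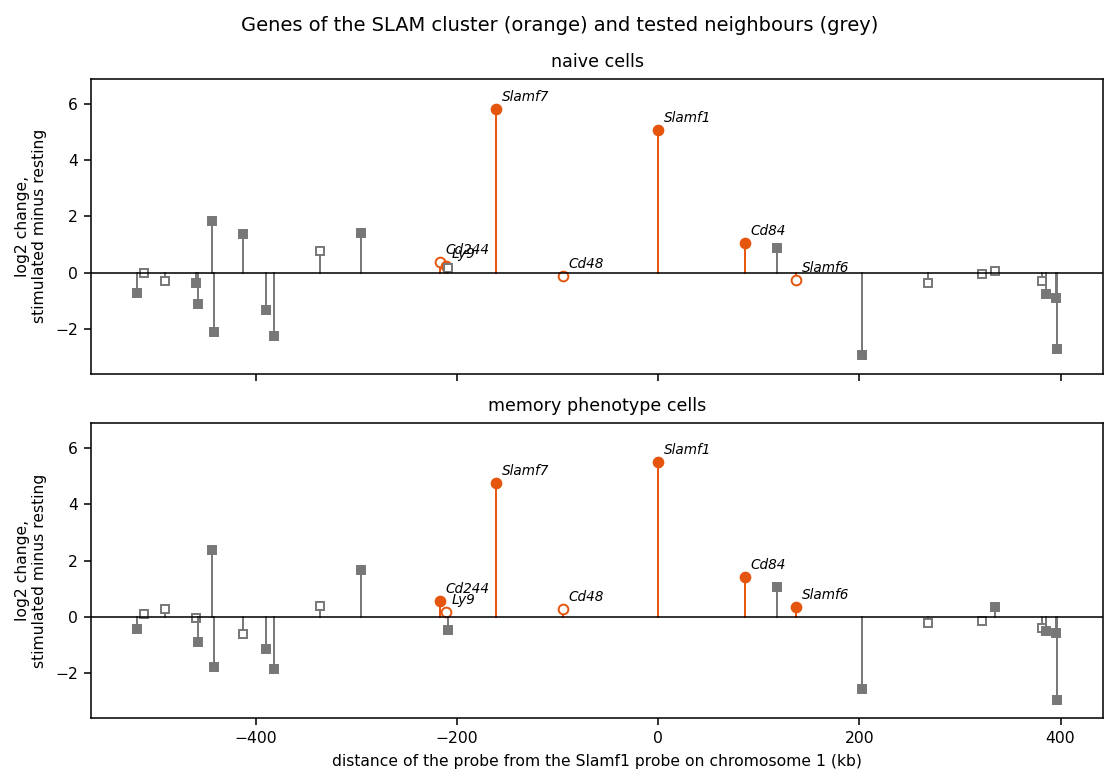
Log2 change after stimulation of the 7 chromosome 1 members (orange circles) and 22 tested neighbours (grey squares) against the distance in kb of each probe from that of Slamf1, in naive (top) and memory phenotype cells (bottom); filled symbols passed an adjusted p of 0.05. The rises of Slamf1 and Slamf7 stand among neighbours between -2.98 and 2.38; the small filled memory value of Slamf6 turned sign under quantile scaling (-0.05) and in the authors' table (-0.02).

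Other genes of the same pathways were taken from lists. Among the remaining SLAM and CD2 family genes only Slamf8 and Cd2 were tested. Slamf8, a receptor with a short tail found mainly on myeloid cells, was not well above background on naive resting arrays, so its naive rise was at least 1.85-fold (limma adjusted p = 9.0e-06). In memory cells it rose by 2.30 ± 0.31 (limma adjusted p = 9.2e-06), and stimulated memory cells exceeded stimulated naive cells by 2.26 ± 0.31 (0.00011). At rest it was at least 1.80-fold higher in memory than in naive cells (limma adjusted p = 9.8e-05). Over quantile scaling, the repaired normexp correction and the authors' table the lowest log2 values of Slamf8 were 0.55 for the naive rise, 1.10 for the memory rise, 0.33 at rest and 0.88 after stimulation, so the sizes above, bounds included, hold for percentile scaling. Cd2, a related adhesion receptor that binds Cd48 in mice, rose by 0.61 ± 0.20 in naive cells (limma adjusted p = 0.0155), with a value of 0.20 under the alternative scaling that gave the least. Slamf9 and Sh2d1b1, which encodes the SAP relative EAT-2, were below the filter.

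Of 19 tested genes that signal below SLAM receptors, 6 rose and 9 fell in naive cells, and 9 rose and 9 fell in memory cells (medians -0.39 and 0.11, beside 0.15 and -0.16 over all genes). Over all genes 38.3% rose and 31% fell in naive cells, and 31.4% rose and 39.1% fell in memory cells. Fyn, the kinase that SAP recruits, rose by 2.29 ± 0.16 in naive and 1.86 ± 0.16 in memory cells. Sh3bp2, an adaptor reported to bind Cd244, rose by 2.57 and 2.41, and Lcp2, the adaptor SLP-76, by 1.01 and 0.99. Inpp5d, the inhibitory phosphatase SHIP, changed by -1.51 and -2.68, Ptpn6, the phosphatase SHP-1, by -1.5 and -1.44, and Plcg1, the phospholipase below the T cell receptor, by -2.10 and -2.29. At rest 3 were higher and 1 lower in memory cells, namely Inpp5d (0.72 ± 0.14), Csk (0.42), Plcg2 (0.41) and Ptpn11 (-0.39). After stimulation 2 were higher, Vav1 (0.60) and Plcg2 (0.39), and 4 lower, led by Inpp5d (-0.45), Lck (-0.44) and Prkcq (-0.37). The interaction passed for Lat (0.72) and Vav1 (0.59) on the higher side and for Inpp5d (-1.17 ± 0.20) and Csk (-0.73) on the lower. Of all genes, 21.5% were called at rest, 24.2% after stimulation and 20% in the interaction, in either direction.

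Of 19 tested partners of TSAd and other SH2 adaptors, 4 rose and 10 fell in naive cells, and 3 rose and 11 fell in memory cells (medians -0.25 and -0.86). Over all genes 38.3% rose and 31% fell in naive cells, and 31.4% rose and 39.1% fell in memory cells (medians 0.15 and -0.16). Sla, the SLAP adaptor that lowers T cell receptor levels, rose by 3.66 ± 0.16 and 2.88 ± 0.16, and its relative Sla2 changed by -3.70 ± 0.23 and -4.55 ± 0.23. Sh2b3, an adaptor that restrains cytokine signals, rose by 2.13 and 2.00, and Shb by 1.66 and 2.28. Grap2, the adaptor GADS that couples LAT to SLP-76, changed by -3.72 and -4.04, and Sh2d3c by -4.81 and -3.92. At rest 2 were higher in memory cells, Sla (1.19) and Nck2 (0.73), and 2 lower, among them Grap2 (-0.54). After stimulation Sh2d3c was higher (0.97) and 6 were lower, led by Crkl (-1.44), Map3k2 (-1.33), a kinase that TSAd is known to bind, and Grap2 (-0.85). The interaction was negative for Crkl (-1.63), Map3k2 (-1.52) and Sla (-0.78). These counts stand beside 21.5% of all genes called at rest, 24.2% after stimulation and 20% in the interaction, in either direction. No named gene of these 2 lists or of the SLAM and CD2 family turned sign under quantile scaling, the repaired normexp correction or in the authors' table. Calls were also counted in fits of every tested probe under these 3 and percentile scaling, 4 fits in all. Those of Prkcq after stimulation and of the Vav1 interaction were made in only 1 of the 4. Those of Inpp5d after stimulation, of Cd2 in naive cells and of Slamf8 at rest were made in 2 of the 4.

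The genes whose level followed a member's most closely over the 16 arrays are given as a description, by Pearson's r, and all 16 points fall into the same 4 groups. Slamf1 was matched by Irf4, a transcription factor of activated lymphocytes (r = 0.996), the transferrin receptor Tfrc (0.995) and 5430434G16Rik (0.995). Slamf7 was matched by Eea1 (0.995), the chemokine gene Xcl1 (0.9945) and Atf6 (0.994). For Sh2d1a the closest were Capn2, Itm2c and Prss12 (0.994 to 0.993), and for Sh2d2a Ptpn7, a phosphatase of blood cells (0.984), Slc37a2 (0.971) and Chst11 (0.970). Cd84 went with Blvra, Gtf3c6 and Ubl3 (0.984 to 0.979) and Cd244 with Metrnl (0.9749). The likest genes of Ly9 (Mirt1, 0.906), Cd48 (Hibadh, 0.935) and Slamf6 (Dpp3, 0.850) had lower r.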

How the data were processed

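RNA of 16 samples was hybridised singly to 1-colour Agilent arrays of 60-base probes on 4 slides. Per the file headers, the authors extracted the scans with Agilent Feature Extraction 9.5.3.1, and the deposited intensity of a spot is its linear processed signal, background-subtracted within the array. A deposited table of the authors' own intensities, with processing not given in the sources used here, served as an alternative. Its scale was found to be linear, and it was used as log2.

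Outlier and control spots were left out and spots of a probe averaged. Levels are log2 of the deposited intensity minus the array's 75th percentile. A probe was tested if well above background on at least 3 of 4 arrays of at least 1 group, and a gene was represented by its tested probe of highest mean. Gene names came from the files, updated through the reference table for 32719 of 41174 probes. A mean for each group was fitted in 1 model over all arrays with limma 3.58.1 (lmFit, eBayes; R 4.3.3, data.table version 1.17.8; Python 3.11.15, numpy 2.4.6 and matplotlib 3.10.9 for sequences and figures), two-sided, with Benjamini-Hochberg adjustment over 18403 genes (27349 probes for second probes). The code was tested on simulated data. "At least" folds divide the bright group's mean by that of the dim group, with the dim probe raised on each array to the lowest signal well above background. Precision is limited by the number of arrays.

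Alternatives were other scalings and background corrections, filters, probe rules, a replicate block, only the compared arrays and leaving out each array. The repaired normexp correction was added after seeing the data, because spots with background over 100 units above signal had distorted the planned one on 3 arrays. Members, lists and markers were chosen with earlier results of these data known. Genes named besides the members were, per list and comparison, up to 3 in each direction with the largest change past the threshold, neighbours within 300 kb, and the 3 genes of highest correlation with each member. Nectin4, Vangl2, Pea15a, Usf1 and Pfdn2 were picked from the neighbours after their values were seen. One gene that this rule names is not reported here.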

Additional observations from a re-analysis of the deposited data

Results flagged for a closer look

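Single arrays stood apart from the other 3 of their group in 6 of 56 combinations of probe and group, where the gap to the nearest array divided by the group's range passed Dixon's 95% critical value for 4 samples. Chance gives about 1 in 20. Cd244 was high on naive resting replicate 1 (0.9145), and Cd84 on memory stimulated replicate 4 (0.8883). The second Slamf7 probe was high on naive stimulated replicate 1 (0.9341), and the second Cd48 probe on memory stimulated replicate 1 (0.8531). The second Slamf6 probe was high on naive stimulated replicate 1 (0.9213) and low on memory stimulated replicate 4 (0.8923).

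The interaction test called a difference between the memory and naive responses for 3 genes, with log2 values of -1.34 for Sh2d2a, -1.08 for Slamf7 and 0.60 for Slamf6. The Sh2d2a call held in all 24 alternatives other than the unrepaired normexp correction. Those of Slamf7 and Slamf6 were lost in 2 and 3 of them, among these the mean of a gene's probes (limma adjusted p = 0.0730 and 0.0886). The Cd244 probe with the switch motif, which was too dim to be tested, was well above background on 4 memory arrays and 0 naive arrays.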

How the results depend on the processing

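Of 27 member changes called, 20 kept their direction and call under all 24 or 25 alternatives, the unrepaired normexp correction left out. Under that correction the genes called higher and lower were 3718 and 2900 (naive response), 6766 and 3107 (memory response), 417 and 103 (resting difference), 259 and 193 (stimulated difference) and 31 and 182 (interaction). Members called higher were 3 in the resting, 0 in the stimulated difference and 0 in the interaction, and lower 0 in the resting difference and 0 in the interaction. The sign turned there for the memory responses of Cd48 (-0.24), Ly9 (-0.24) and Slamf6 (-0.12), the stimulated differences of Cd48 (-0.10), Ly9 (-0.00864) and Sh2d2a (-0.0332), and the interactions of Cd84 (-0.0311) and Slamf1 (-0.26). On 3 arrays its median signal was 399 to 1157, against 97.9 to 112 after the repair.

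With the repaired correction, 1511 genes and 1 member had a lower interaction and 2 members a lower naive response. Under quantile scaling 3 members fell in naive cells and 0 had a higher interaction, and the memory responses of Cd48 (-0.19), Ly9 (-0.0790) and Slamf6 (-0.0539) turned sign. In the authors' values 1681 genes had a higher interaction, 2206 were lower in memory cells at rest and 3 members fell in naive cells, and the same memory responses turned (-0.18, -0.13 and -0.0244). Every tested probe on its own gave 10626 and 9132 probes higher in the naive and memory responses. With the mean of a gene's probes 0 members had a higher and 1 a lower interaction, and the naive response of Slamf6 turned to 0.47. The causes were not tested.

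Leaving out 1 array gave 871 to 1961 genes lower at rest, 0 to 2 members with a higher interaction and 1 to 2 falling in naive cells. The Sh2d1a interaction turned to 0.0184 without naive stimulated replicate 4.

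The labels do not say whether same-numbered replicates share a round, and the main fit did not pair them. Same-numbered arrays of different groups correlated in their deviations at -0.21 to 0.59 (median 0.16, 16 of 24 pairs over 0.1). For other pairs the median was -0.07, with 13 of 72 over 0.1. Among the 4 arrays of another group, the best partner had the same number in 31 of 48 cases. As a set, same-numbered arrays were thus more alike than others, which the main fit did not use. With the replicate number as a block, 1768 genes had a higher interaction, 2427 were lower at rest, and the stimulated differences of Cd84 and Ly9 also passed. The slide as a block was not run, since each slide held 1 group.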
